A study of Homo sapiens with 7 samples.

Results

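H3K4me3 and H3K9Ac were compared at the transcription start sites (TSS) of human protein-coding genes in HCT116, a colorectal carcinoma cell line. A gene was assigned a mark when a peak of that mark lay within 1 kb of its TSS on either side, and 11590 of 20162 coding genes (57.5%) carried both marks. H3K4me3 without H3K9Ac was found at 334 genes (1.66%), H3K9Ac without H3K4me3 at 207 genes (1.03%), and neither mark at 8031 genes (39.8%). Of the genes with H3K4me3, 97.2% also had H3K9Ac, and of the genes with H3K9Ac, 98.2% also had H3K4me3. Chromatin came from microplate wells of about 200000 fixed cells each and was sheared for 6 min, in a volume of 100 µl, by PIXUL, an instrument that sonicates every well of a plate, and the labels name no treatment. Each mark was immunoprecipitated from 1 well with its own antibody, so every comparison below is between 1 library of each mark and no test across replicates could be made. The cell line and the preparation were shared by both libraries, and the series holds 7 labelled libraries in all, of which peak lists of 6 were used here.

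Both modifications sit on the tail of histone H3 around active and poised promoters. Trimethylation of lysine 4 is written by the SET1 and MLL (KMT2) methyltransferase complexes, which contain WDR5, RBBP5 and ASH2L and which reach unmethylated CpG-rich DNA through CXXC domain proteins. Acetylation of lysine 9 is written mainly by the acetyltransferases KAT2A (GCN5) and KAT2B (PCAF) within the SAGA and ATAC complexes and is removed by histone deacetylases. SAGA carries a reader of H3K4me3, SGF29, and the general transcription factor TFIID carries another, TAF3.

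The DNA just before the TSS is shown for 5 promoters, which are single examples from the groups described below and need not be typical of them. It is given as the 250 bases upstream of the TSS on hg19, read 5′ to 3′ on the strand of the gene. Capitals mark CpG dinucleotides. Their median number was 23 at genes with both marks, 18 with H3K4me3 only and 7 with H3K9Ac only. Among shared pairs it hardly differed, at 24 where H3K4me3 ranked more than 25 points higher, 23 within 25 points and 24 where H3K9Ac ranked higher. ANP32B (chr9:100745373-100745622, plus strand), which had the highest H3K9Ac fold enrichment among shared promoters, held 38 CpG. PHC2 (chr1:33896697-33896946, minus strand), where H3K4me3 ranked far above H3K9Ac, held 21 CpG. HOXA9 (chr7:27205157-27205406, minus strand), where H3K9Ac ranked far above H3K4me3, held 20 CpG. NATD1 (chr17:21156723-21156972, minus strand) carried H3K4me3 only and held 28 CpG. PYDC1 (chr16:31228457-31228706, minus strand) carried H3K9Ac only, with no H3K4me3 peak listed in its window, and held 2 CpG. The nearest H3K4me3 peak past the limits lay 1133 bp from the PYDC1 TSS, just outside the window. The H3K9Ac peak of PYDC1 met 1 such peak. No exon of the annotation overlaps these 5 intervals. Those of ANP32B, PHC2 and NATD1 lie between genes, and that of PYDC1 lies in an intron of TRIM72 on the opposite strand. That of HOXA9 lies in an intron of longer HOXA9 transcripts and of ENSG00000257184, a coding gene on the same strand.
ANP32B: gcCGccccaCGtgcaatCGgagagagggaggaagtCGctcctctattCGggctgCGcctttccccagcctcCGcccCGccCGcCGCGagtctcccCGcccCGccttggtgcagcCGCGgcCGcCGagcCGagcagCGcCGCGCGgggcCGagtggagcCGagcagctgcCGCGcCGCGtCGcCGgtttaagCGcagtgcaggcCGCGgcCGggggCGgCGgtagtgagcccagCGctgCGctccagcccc
PHC2: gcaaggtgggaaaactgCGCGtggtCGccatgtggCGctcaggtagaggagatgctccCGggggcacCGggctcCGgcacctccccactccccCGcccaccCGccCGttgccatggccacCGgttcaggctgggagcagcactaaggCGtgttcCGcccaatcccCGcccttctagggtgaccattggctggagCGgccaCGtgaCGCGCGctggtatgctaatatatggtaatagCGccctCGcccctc
HOXA9: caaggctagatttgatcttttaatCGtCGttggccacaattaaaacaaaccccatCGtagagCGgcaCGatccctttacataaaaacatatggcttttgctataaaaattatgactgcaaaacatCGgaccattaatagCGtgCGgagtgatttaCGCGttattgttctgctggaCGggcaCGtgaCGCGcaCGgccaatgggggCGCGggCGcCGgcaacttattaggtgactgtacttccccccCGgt
NATD1: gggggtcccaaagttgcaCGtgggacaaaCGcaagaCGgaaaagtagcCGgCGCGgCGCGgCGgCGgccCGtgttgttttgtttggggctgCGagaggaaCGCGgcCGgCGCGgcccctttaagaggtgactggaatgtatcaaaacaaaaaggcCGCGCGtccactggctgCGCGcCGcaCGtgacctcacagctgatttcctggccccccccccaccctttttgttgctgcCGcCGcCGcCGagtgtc
PYDC1: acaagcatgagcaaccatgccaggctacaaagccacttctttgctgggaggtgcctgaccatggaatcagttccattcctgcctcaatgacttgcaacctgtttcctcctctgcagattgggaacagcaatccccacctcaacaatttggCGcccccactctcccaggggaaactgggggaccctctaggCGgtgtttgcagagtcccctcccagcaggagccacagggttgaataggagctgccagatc

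The measurements are those of the peak lists. Each peak has a fold enrichment, which is the linear ratio of ChIP signal to background over the whole peak, and a −log10 q-value. The limits of the study's methods, 1e-10 for the q-value and 5 for the fold enrichment, left 12749 of 16112 H3K4me3 peaks (79.1%) and 12720 of 34164 H3K9Ac peaks (37.2%). Read depth of the libraries is unknown from these lists, and the intervals given below are 95% intervals that cover counting error only. All 7 epithelial marker genes looked up (EPCAM, CDH1, KRT8, KRT18, KRT19, CLDN4 and CLDN7) carried both marks, as against 1 of 19 markers of lymphocytes, fibroblasts, endothelium, hepatocytes and neurons (COL1A1). SYT1, a neuronal vesicle protein gene, carried H3K4me3 only, and the other 17 carried neither mark.

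The fold enrichments of the marks followed each other closely across shared promoters. The 11590 genes corresponded to 10140 distinct pairs of peaks, because 1220 pairs lay at 2 coding TSS and 111 at more than 2, and Spearman's rank correlation between the fold enrichments over these pairs was 0.79. The median fold enrichment was 22.7 for H3K4me3, with quartiles of 17.6 and 27.9, and 13.0 for H3K9Ac, with quartiles of 10.5 and 15.8. The antibodies and libraries differ, so the levels were not compared between the marks and only ranks were. The rank correlation was 0.81 for the −log10 q-value and 0.72 for peak width, and it was 0.79 over the 8809 pairs with 1 coding TSS. The pairs come from the same cells and the same genome, so the rank correlation describes these libraries and carries no p-value.

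With the pairs cut into 10 equal groups by H3K4me3 fold enrichment, the median H3K9Ac value was higher in every group than in the one below it. From the lowest group to the highest, the median H3K9Ac fold enrichment was 8.10, 9.68, 11.0, 11.9, 12.7, 13.5, 14.5, 15.7, 16.8 and 19.2. Of the 1014 pairs in the top 10% by H3K4me3, 575 (56.7%) were also in the top 10% by H3K9Ac. Of the 1014 pairs in the bottom 10% by H3K4me3, 591 (58.3%) were also in the bottom 10% by H3K9Ac. The opposite ends hardly met. Among the 1014 pairs in the top 10% by H3K4me3, 0 were in the bottom 10% by H3K9Ac, with an upper interval bound of 0.377%, and 1 pair was in the top 10% by H3K9Ac and the bottom 10% by H3K4me3. Percentile ranks lay within 10 points of each other in 49.5% of pairs and within 25 points in 84.4%. The rank correlation was 0.83 in the 3380 pairs with the narrowest H3K9Ac peaks and in the 3380 of middle width, and 0.70 in the 3380 with the widest. Within 1 mark, fold enrichment followed width less closely, with a rank correlation of 0.32 for H3K4me3 and 0.21 for H3K9Ac.

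**Figure D1:**
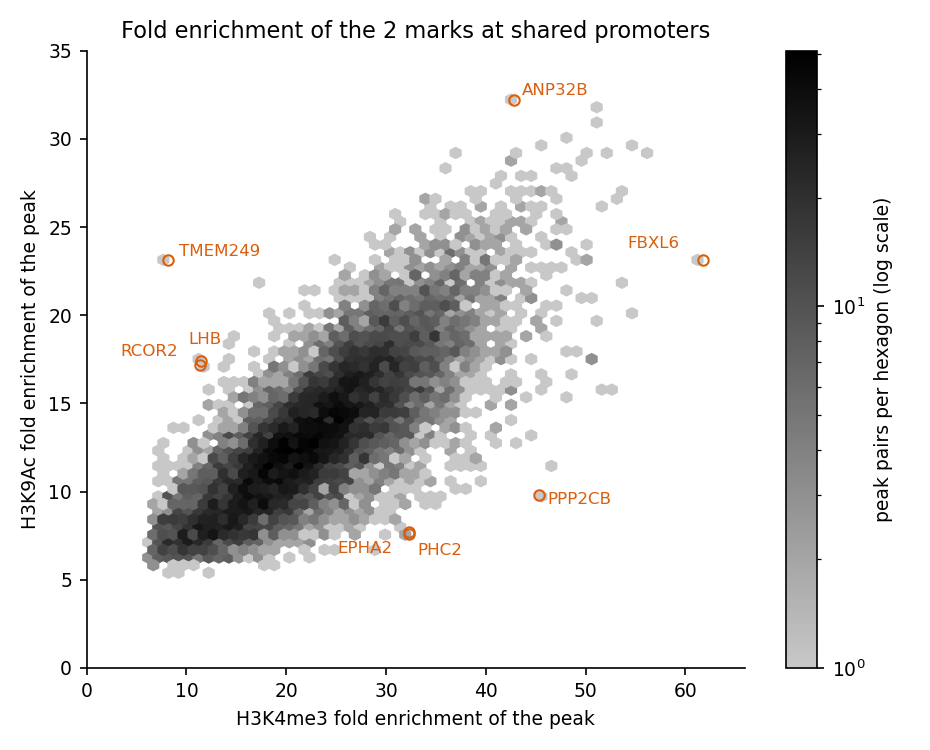
Fold enrichment of the H3K4me3 peak (x axis) against that of the H3K9Ac peak (y axis) for the 10140 distinct peak pairs at shared promoters, with the number of pairs per hexagon in grey on a log scale and 8 named genes circled. Most pairs lie along 1 band (Spearman's rank correlation 0.79), and PHC2, EPHA2, PPP2CB, RCOR2, LHB and TMEM249 lie away from it.

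The promoters with the highest fold enrichment of 1 mark were also high in the other. The highest H3K4me3 fold enrichment, 61.7, lay at the promoter shared by FBXL6, an F-box protein gene, and SLC52A2, a riboflavin transporter gene, where H3K9Ac had 23.1. GLI4, a zinc finger gene, had 56.3 for H3K4me3 and 29.3 for H3K9Ac. RNF166 and CTU2, which share a promoter, had 54.7 and 29.5, and were among the 5 highest pairs for both marks. CCDC57 had 54.4 and 20.0, and the pair RECQL4, a DNA helicase gene, and LRRC14 had 54.0 and 21.9. By H3K9Ac these 5 pairs lay between percentiles 93.7 and 100. The highest H3K9Ac fold enrichment, 32.2, lay at ANP32B, a histone chaperone gene, where H3K4me3 had 42.8. EMC8 and COX4I1, the latter a cytochrome c oxidase subunit gene, had 31.1 and 51.1, and LETM1, a mitochondrial inner membrane protein gene, had 30.2 and 48.0. At the lower end, PLA2G6 (6.17), BTN3A2 (6.29) and SEMA3G (6.35) had the lowest H3K4me3 fold enrichments among shared promoters, and TINCR (5.39), ANGPTL4 (5.50) and ZNF358 (5.52) the lowest for H3K9Ac.

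A difference of more than 25 percentile points was found at 821 pairs with H3K4me3 ranked higher (8.10%) and at 762 pairs with H3K9Ac ranked higher (7.51%). These pairs stood at 898 genes (7.75%) and 893 genes (7.7%). Where H3K4me3 ranked higher, the H3K9Ac peak was wide. Its median width there was 4547 bp, against 2975 bp at pairs within 25 points and 2954 bp where H3K9Ac ranked higher, and the H3K4me3 peaks had median widths of 1892, 2030 and 2128 bp in that order. The fold enrichment is a value of the whole peak, and the part of peak width in the rank difference was not tested.

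The largest differences with H3K4me3 ranked higher were at 5 genes with broad H3K9Ac. PHC2, a Polycomb group gene, had an H3K4me3 fold enrichment of 32.3, at percentile 88.4, and an H3K9Ac fold enrichment of 7.6, at percentile 5.2. Its H3K9Ac peak ran from −9593 to +2870 bp around the TSS, with negative positions upstream, while its H3K4me3 peak ran from −192 to +1631 bp. EPHA2, an ephrin receptor gene, had 32.3 and 7.68, and its H3K9Ac peak was the widest at any shared promoter, at 48229 bp. PPP2CB, a catalytic subunit gene of protein phosphatase 2A, had 45.4 and 9.78. CUEDC1 had 31.6 and 8.06, and SLC7A5, an amino acid transporter gene, had 34.7 and 9.22. The H3K9Ac peak reached more than 2 kb past the H3K4me3 peak on both sides at EPHA2 and SLC7A5, upstream at PHC2, and downstream at PPP2CB and CUEDC1.

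The largest differences with H3K9Ac ranked higher included promoters that shared an H3K9Ac peak with a neighbouring pair. TMEM249 had an H3K4me3 fold enrichment of 8.18, at percentile 1.3, and an H3K9Ac fold enrichment of 23.1, at percentile 98.3, but its H3K9Ac peak was the same peak as that of FBXL6. LRRC24 and C8orf82 had 16.8 and 21.9 and shared the H3K9Ac peak of RECQL4. LHB, the luteinising hormone beta subunit gene, had 11.5 and 17.4, with both peaks ending upstream of its TSS, at −566 and −277 bp. RCOR2, a corepressor gene, had 11.3 and 17.2, and MROH6 had 14.2 and 18.2. An H3K9Ac peak that also belonged to another pair was found at 51 of 762 pairs with H3K9Ac ranked higher (6.69%, interval 5.13 to 8.69%), at 22 of 821 pairs with H3K4me3 ranked higher (2.68%) and at 1.95% of the pairs within 25 points. Leaving out all such pairs gave a rank correlation of 0.80.

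H3K9Ac reached further from the TSS than H3K4me3 on both sides. At the 11412 shared genes whose TSS lay inside both peaks (98.5%), the H3K4me3 peak ran from a median of −801 bp, with an interval of −813 to −789 bp, to +1220 bp, with an interval of 1212 to 1228 bp. The H3K9Ac peak ran from a median of −1242 bp to +1696 bp. The H3K9Ac edge lay beyond the H3K4me3 edge by a median of 335 bp upstream, with quartiles of 163 and 658 bp, and by 420 bp downstream, with quartiles of 203 and 897 bp. It lay further out at 94.4% of genes upstream and at 95.1% downstream. The H3K9Ac peak contained the whole H3K4me3 peak at 10305 genes (90.3%), and the H3K4me3 peak contained the H3K9Ac peak at 65 genes (0.57%). Both edges coincided within 200 bp at 9.57% of genes. H3K9Ac reached more than 2 kb past H3K4me3 at 7.30% of genes upstream and at 9.54% downstream. The broader H3K9Ac call was made from a different antibody and a different library, and the part of these in the difference cannot be told apart from that of the mark.

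**Figure D2:**
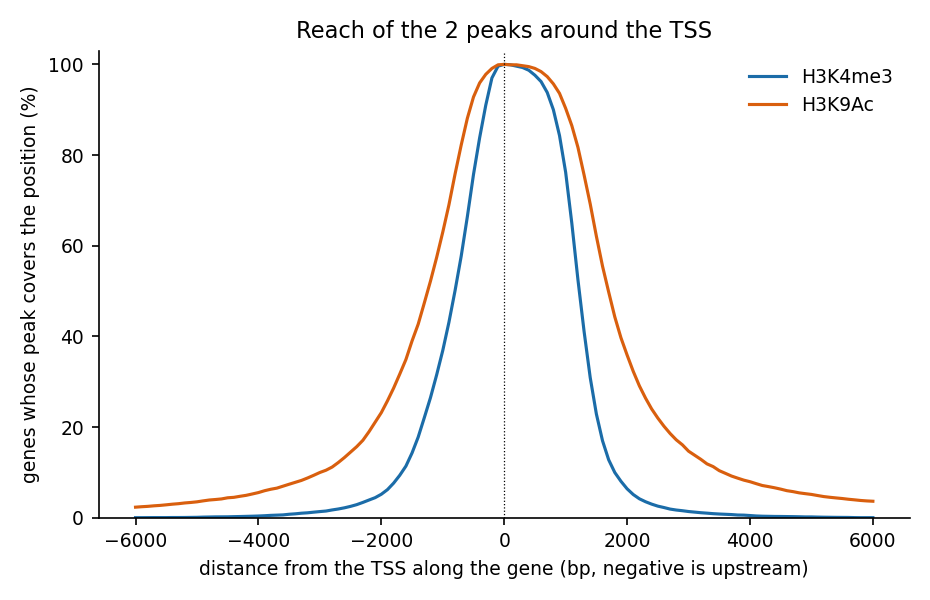
Share of the 11412 genes with the TSS inside both peaks whose peak covers each position, in steps of 100 bp from 6 kb upstream to 6 kb downstream of the TSS. At 1500 bp downstream 22.9% of genes were covered by H3K4me3 and 62.1% by H3K9Ac, and at 1500 bp upstream 14.3% and 39.0%.

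Both peaks lay asymmetrically around the TSS. H3K4me3 reached further downstream than upstream at 73.5% of genes and H3K9Ac at 69.3%, and the median midpoints were +206 and +240 bp. This asymmetry was reversed for both marks where another coding TSS on the opposite strand lay within 1 kb upstream. At the 1762 such genes H3K4me3 ran from a median of −1420 to +1164 bp and H3K9Ac from −1890 to +1592 bp. At the 9650 other genes they ran from −709 to +1232 bp and from −1122 to +1714 bp. Where such neighbours share a peak, upstream of either gene is downstream of the other. The part of this layout in the reversal was not tested. The distance of H3K9Ac past H3K4me3 was 395 bp upstream and 394 bp downstream at the divergent promoters, and 326 and 426 bp at the others. Across genes, the edges of the marks followed each other on the same side, with a rank correlation of 0.74 upstream and 0.73 downstream, whereas the upstream and downstream edges of 1 mark followed each other less, with 0.10 for H3K4me3 and 0.26 for H3K9Ac.

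The downstream edge most often fell in the first intron. On the canonical transcript, which was given for 11380 of these genes, H3K4me3 ended in intron 1 at 73.8%, in a later intron at 16.0%, in a later exon at 5.44% and in exon 1 at 3.30%. H3K9Ac ended in intron 1 at 67.3% and in a later intron at 20.8%. It ended beyond the transcript at 3.89% of genes, as against 1.45% for H3K4me3. Both edges were in the same part of the transcript at 85.2% of genes.

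At a few genes H3K9Ac reached far past H3K4me3. Upstream, TERF2, a telomere-binding protein gene, and CYB5B, a cytochrome b5 gene, lay at opposite ends of 1 H3K9Ac peak with a fold enrichment of 8.48, which extended 40465 bp past the H3K4me3 peak of TERF2 and 39905 bp past that of CYB5B. EPHA2 followed with 29037 bp. Downstream, the reach was 31835 bp at BCL2L1, the gene of the apoptosis inhibitor BCL-XL, 29767 bp at ITPRID2 and 27033 bp at RNF43, a negative regulator of Wnt signalling. The H3K9Ac fold enrichments at these last 3 genes were 7.48, 8.83 and 6.00, all at or below percentile 12.7. By comparison, the peaks at EMC8 and COX4I1 differed by 281 bp upstream and 446 bp downstream.

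**Figure D3:**
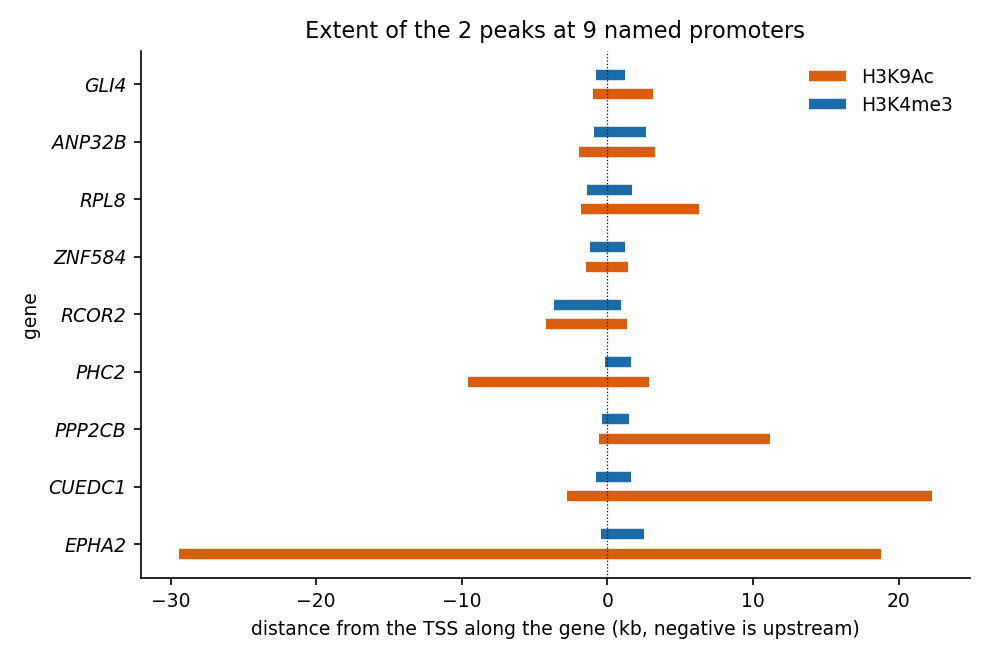
Extent of the H3K4me3 peak (blue, upper bar) and of the H3K9Ac peak (orange, lower bar) around the TSS of 9 named genes, in kb along the gene, with negative values upstream. The H3K9Ac bars of PHC2, PPP2CB, CUEDC1 and EPHA2 extend past them by up to 29037 bp.

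All 334 genes with H3K4me3 only had a weaker H3K9Ac peak in the same window. The fold enrichment of these H3K9Ac peaks ranged from 3.22 to 6.46 around a median of 5.54. Their −log10 q-values were all under the limit of 10, around a median of 8.00. They missed the q-value limit alone at 265 genes and both limits at 69 genes, and at 0 genes did they miss the fold limit alone. The H3K4me3 peaks were themselves weak and narrow. Their median fold enrichment was 8.66, above that of 1.73% of shared pairs, and their median width was 1162 bp, against 2024 bp in the shared pairs. Of the 10% of genes with the weakest H3K4me3, 25.3% had no H3K9Ac past the limits, as against 0.298% in the rest. When every deposited peak was counted, 22 genes had H3K4me3 without H3K9Ac, and with the fold limit raised 1.5 times 730 did.

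The strongest of these genes was ZNF134, a zinc finger gene on chromosome 19, with an H3K4me3 fold enrichment of 16.3 and an H3K9Ac fold enrichment of 5.82 under the limits. NATD1, whose promoter is shown above, had 15.8 and 5.40, and BMERB1 had 15.6 and 5.0. ACP7, an acid phosphatase gene, had 15.1 and 5.89, and RELB, a subunit gene of the transcription factor NF-kappaB, had 14.6 and 4.88. Even the highest of these values, 16.3, lay under the lower quartile of H3K4me3 in shared pairs. The genes nearest to the q-value limit were GRAMD1C and NIBAN1, with an H3K9Ac −log10 q-value of 9.98 each, and BRINP3 with 9.97. FAM27A had the nearest H3K9Ac peak past the limits outside the window, 1743 bp from its TSS.

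The 207 genes with H3K9Ac only were of 2 kinds. A weaker H3K4me3 peak was listed in the window at 117 genes (56.5%, interval 49.7 to 63.1%) and had a fold enrichment of 5.18 in the median. Its median −log10 q-value was 6.34, and it missed the q-value limit alone at 65 genes and both limits at 52. The other 90 genes had no H3K4me3 peak in the window at all. At 80 of these 90 the H3K9Ac peak met an H3K4me3 peak past the limits further away, and only 29 of the 90 TSS lay inside the H3K9Ac peak. The H3K9Ac peaks of the 207 genes were wide, with a median of 3658 bp against 3033 bp in the shared pairs, and their median fold enrichment was 8.53, above that of 10.7% of shared pairs. Of the 10% of genes with the weakest H3K9Ac, 8.57% had no H3K4me3 past the limits, as against 0.998% of the rest. When every deposited peak was counted, 563 genes had H3K9Ac without H3K4me3.

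Among the 90 genes the strongest H3K9Ac peaks mostly ended before or began after the TSS. WDR97 had a fold enrichment of 22.99, ENSG00000267168 of 22.1, SLURP1 of 21.3, ENSG00000288699 of 18.9 and TRIM39-RPP21 of 18.7. The TSS lay outside the H3K9Ac peak in 4 of these 5, and an H3K4me3 peak past the limits lay 1845, 1749, 2488, 1351 and 1015 bp from the TSS in that order. The H3K4me3 peak was also just outside the window at HAPLN1 (1015 bp) and LPXN (1019 bp). HOXD11 and ARHGEF19, with an H3K4me3 −log10 q-value of 9.97 each, and AJM1, with 9.96, were the nearest to the q-value limit.

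At 10 of the 90 genes the H3K9Ac peak met no H3K4me3 peak past the limits anywhere along its length. These 10 were named after their values were seen and had H3K9Ac fold enrichments between 5.76 and 8.65. They were BEST4 (8.65), a bestrophin channel gene, MYO15B (8.34), PRKACB (8.26), a catalytic subunit gene of protein kinase A, S1PR4 (8.16), a sphingosine 1-phosphate receptor gene, CASP8 (7.13), the initiator caspase of death receptor signalling, FSCN2 (6.69), C17orf99 (6.32), KLHDC7B (6.31), GPR15 (5.79), a homing receptor gene of lymphocytes to the colon, and ACSL5 (5.76), an acyl-CoA synthetase gene of the intestine. All but BEST4 also had an H3K4me1 peak in the TSS window, which 86.5% of all genes with H3K9Ac only had. PRKACB, FSCN2 and GPR15 were the 3 whose H3K9Ac peak met no deposited H3K4me3 peak of any strength. The TSS lay outside the H3K9Ac peak at BEST4, S1PR4, CASP8, C17orf99 and KLHDC7B. The H3K9Ac peaks of GPR15 and ACSL5 contained the TSS and were 20391 and 23716 bp wide.

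**Figure D4:**
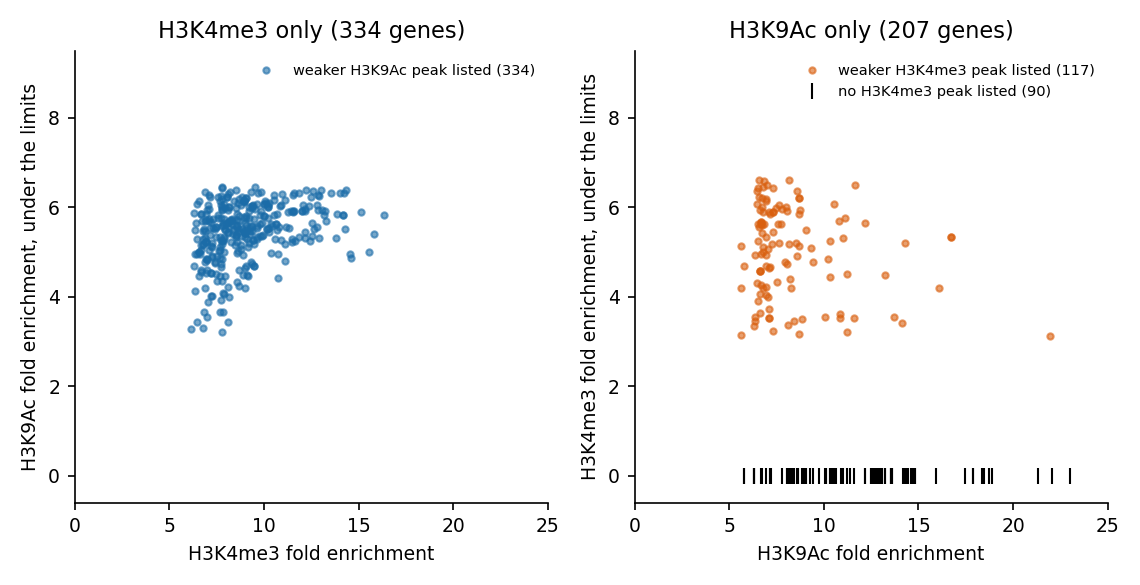
Fold enrichment of the mark that passed the limits (x axis) against that of the other mark's weaker peak in the same TSS window (y axis), for the 334 genes with H3K4me3 only (left) and the 207 genes with H3K9Ac only (right), where black ticks at 0 stand for the 90 genes with no H3K4me3 peak listed and are not measured values. Every gene on the left has a weaker H3K9Ac peak, with fold enrichments of 3.22 to 6.46.

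The classes differed in what lay in the 250 bases before the TSS, which the assignment of marks did not use. The median number of CpG was 23 at genes with both marks, 18 with H3K4me3 only, 7 with H3K9Ac only and 5 with neither, and the median GC content was 67.2, 64, 59.6 and 54.0%. The genes with H3K9Ac only thus resembled unmarked genes more than shared ones in CpG number. This class pools the kinds described above, and the bases were read at the TSS and not at the peak. Only 136 of the 207 TSS lay inside the H3K9Ac peak. At 107 of the 207 genes that peak met an H3K4me3 peak past the limits outside the window. The GC box GGGCGG, bound by SP family factors and searched on both strands like every motif here, was found at 76.4% of genes with both marks, 66.2% with H3K4me3 only and 48.8% with H3K9Ac only, as against 58.6% of all coding genes. The ETS motif CCGGAAG was found at 18.1, 9.88 and 4.35% in the same order (11.8% of all), and the NRF1 motif GCGCATGCG at 3.78, 1.80 and 0% (2.41% of all), where 0 of 207 genes leaves an upper bound of 1.82%. The AP-1 motif TGANTCA had the opposite order, at 2.67, 4.49 and 11.6% (interval 7.92 to 16.7%), with 4.72% of all. The TATA box TATAAA was found at 4.24, 5.99 and 9.66%, with 9.40% of all. A match describes the letters in this window and not a bound site, and GC-rich motifs move with GC content, whose part was not tested.

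Some of the other marks of the series also differed between the classes. H3K4me1, a mark of enhancers and promoter flanks, was at the TSS of 75% of genes with both marks, 56.0% with H3K4me3 only and 86.5% (interval 81.1 to 90.5%) with H3K9Ac only, as against 49.1% of all coding genes. H3K27me3, the Polycomb mark, was at 0.587, 2.69 and 1.45%, as against 1.22% of all. The shares of the genes with 1 mark rest on 9 genes with H3K4me3 only and 3 with H3K9Ac only. Their intervals, 1.42 to 5.04% and 0.494 to 4.17%, overlap, and the latter also holds the 0.587% of genes with both marks. A deposited H3K36me3 peak, the mark of transcribed gene bodies, lay in the gene body at 85.3, 36.8 and 46.4%, as against 56.3% of all. Median gene length was 33594, 51010 and 11848 bp in that order, and its part in these shares was not tested. CTCF was at 19.5, 14.1 and 16.4%, with overlapping intervals for the genes with 1 mark, as against 13.6% of all coding genes. Among shared pairs, H3K36me3 lay in the gene body at 92.7% where H3K4me3 ranked more than 25 points higher, 85.5% within 25 points and 77.6% where H3K9Ac ranked higher. H3K4me1 was at 83.1, 74.7 and 84.0% in the same order, so it was more frequent in both of the differing groups. A divergent coding TSS was present at 5.24, 8.82 and 6.96%.

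Most genes that write, read and remove these marks carried both of them, next to 57.5% of all coding genes. All 16 genes of the H3K4 methyltransferase complexes had both marks, with median percentile ranks of 56.5 for H3K4me3 and 64 for H3K9Ac, next to 50.8 and 51.2 over all shared genes. WDR5 had fold enrichments of 42.5 and 24.7 for H3K4me3 and H3K9Ac, and PAXIP1 had 39.3 and 26.5, whereas RBBP5 had 15.0 and 10.5 and CXXC1 had 14.9 and 7.80. All 5 H3K4 demethylase genes on autosomes and chromosome X had both marks, and KDM5B stood apart with H3K4me3 at percentile 72.3 and H3K9Ac at 23.6. Of 12 genes of H3K4me3 readers 11 had both marks, led by SPIN1 (32.3 and 16.4) and CHD1 (31.3 and 18.2). SGF29 itself was among the weakest, at 7.75 and 7.70, and ING4 had H3K4me3 only, at 8.78 with H3K9Ac at 5.15 under the limits. All 13 genes of the H3K9 acetyltransferase complexes had both marks, from TRRAP (40.7 and 22.7) and YEATS2 (32.6 and 18.4) down to MBIP (16.5 and 6.73) and SUPT3H (14.1 and 13.0). Of 15 deacetylase genes 13 had both marks, with SIRT7 at 52.5 and 15.6 the highest, followed by HDAC7 at 33.8 and 16.2. SIRT2 (14.8 and 8.17) and HDAC6 (9.54 and 7.5) were the lowest, and HDAC8 had H3K4me3 only (9.02, with H3K9Ac at 5.43).

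The 79 cytoplasmic ribosomal protein genes all had both marks, next to 57.5% of all coding genes, and their H3K9Ac reached far into the genes. The H3K9Ac edge lay a median of 2033 bp past the H3K4me3 edge downstream, as against 420 bp over all shared genes, but 379 bp upstream, as against 335 bp. The median widths were 2777 bp for H3K4me3 and 5749 bp for H3K9Ac. H3K4me3 ranked more than 25 points higher at 17 of the 79 and H3K9Ac at 5, beside 7.75 and 7.7% of all shared genes. RPL8 had fold enrichments of 50.8 and 17.5, with H3K9Ac reaching 4638 bp further downstream, RPL7 had 42.3 and 25.3, and RPL41 and RPL36A were lowest by H3K4me3 with 14.6 and 14.0. RPL27 showed the widest gap of the list, with H3K4me3 at percentile 67.7 and H3K9Ac at 11.1, and was named after its values were seen. Of 18 glycolysis genes 17 had both marks, at median percentiles of 73.7 and 73.4, the highest of any list for H3K4me3. PFKL had 38.3 and 16.3 and TPI1 had 37.4 and 15.4, and at TPI1 the H3K9Ac edge lay 5753 bp further downstream. PGK1 (12.1 and 9.81) and ENO2 (12.7 and 10.03) were the lowest.

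Genes of proliferation and of stress responses nearly all carried both marks, next to 57.5% of all coding genes. Of 45 cell cycle and replication genes 44 had both, with median percentiles of 58.1 and 63.2, led by MKI67 (34.7 and 20.4) and E2F3 (34.7 and 23.4), and CDC25C (12.2 and 10.5) was among the lowest. H3K4me3 ranked more than 25 points higher at 1 of the 44 and H3K9Ac at 3, beside 7.75 and 7.7% of all shared genes. Of 25 p53 target genes 24 had both, at 51.0 and 56.0. Here H3K4me3 ranked more than 25 points higher at 3 of the 24 and H3K9Ac at 6, beside the same 7.75 and 7.7%. GADD45A (39.0 and 18.0) and TP53INP1 (32.2 and 18.9) were the highest and TP53I3 (14.7 and 12.2) and DDB2 (9.44 and 10.4) the lowest. Of 23 immediate early genes, which respond within minutes to growth factors, 22 had both marks, at median percentiles of 29.6 and 43.3. Each mark ranked more than 25 points higher at 3 of the 22, beside the same 7.75 and 7.7%. All 22 carried H3K4me1, as did 75% of all shared genes. FOSL1 had 43.7 and 15.3 and MCL1 had 30.6 and 13.1, whereas EGR2 had 10.1 and 7.46 and FOSB 9.93 and 7.94.

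Some intestinal and epithelial genes had H3K4me3 ranked well above H3K9Ac. Both marks were at 21 of 39 (53.8%), near the 57.5% of all coding genes. The median percentiles of these 21 were 45.4 for H3K4me3 and 23.9 for H3K9Ac. H3K4me3 ranked more than 25 points higher at 7 and H3K9Ac at 1, beside 7.75 and 7.7% of all shared genes. Over the whole list the marks were closer, with H3K4me3 ranked higher at 12 of 21 and a median difference of 2.98 points within pairs. AXIN2, a Wnt target gene, had 32.9 and 13.3, and CDX2, the intestinal homeobox gene, had 31.6 and 17.3. The stem cell factor ASCL2 had 7.6 and 8.26, and the transcription factor HNF4A 7.92 and 6.92. CDH1, which encodes E-cadherin, and KRT8 and KRT18, the keratin pair of simple epithelia, were named after their values were seen. CDH1 had 25.1 and 6.74, with H3K9Ac reaching 9052 bp further downstream, KRT8 had 21.8 and 7.37, and KRT18 had 24.4 and 9.09. In the list as a whole the median H3K9Ac width was 4329 bp, as against 3107 bp over all shared genes. Of 24 chemokine and cytokine genes 5 had both marks (20.8%, as against 57.5% of all coding genes). CXCL2 had 18.5 and 14.5 and CXCL3 had 18.5 and 14.7, with H3K9Ac at percentiles of 64 and 66.3 and H3K4me3 at 29.2 and 29.3, while CXCL16 had 25.2 and 17.3 and CSF1 had 24.1 and 11.4. IL18 had H3K4me3 only (7.79) and LIF H3K9Ac only (9.30, with H3K4me3 at 5.09).

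Replication-dependent histone genes leaned to H3K9Ac. Of 64 such genes 43 had both marks (67.2%, next to 57.5% of all coding genes), at median percentiles of 9.6 for H3K4me3 and 47.1 for H3K9Ac. H3K9Ac ranked more than 25 points higher at 30 and H3K4me3 at 0, beside 7.7 and 7.75% of all shared genes. The genes lie in clusters, and the 43 genes had 25 distinct H3K4me3 peaks and 20 distinct H3K9Ac peaks, with up to 5 genes in 1 H3K9Ac peak. Counted once per peak pair, H3K9Ac ranked higher at 16 of 25 pairs. At the 25 genes whose H3K9Ac peak belonged to no other pair it ranked higher at 14. Over all 43 genes the H3K9Ac peaks had a median width of 9681 bp and the promoters a median of 10 CpG, as against 23 at all shared genes. H3C14 had 21.95 and 19.2 and H2AC19 20.7 and 19.2, the highest by H3K4me3, and their H3K9Ac value is that of 1 shared peak. H2AC14 and H2BC14, which share a promoter, had 7.06 and 12.1. H4C3 and H4C8 had H3K9Ac only, with H3K4me3 at 5.14 and 4.95 under the limits. Histone genes have near-identical copies, and reads of such copies may be assigned among them in ways the lists do not show.

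HOX genes also leaned to H3K9Ac. Both marks were at 19 of 39 (48.7%, next to 57.5% of all coding genes), at median percentiles of 27.9 and 53.6. H3K9Ac ranked more than 25 points higher at 7 and H3K4me3 at 0, beside 7.7 and 7.75% of all shared genes. Counted once per peak pair, H3K9Ac ranked higher by this margin at 5 of 16 pairs. HOXB9 had 33.9 and 25.7 and HOXC9 26.5 and 17.4, whereas HOXA3 had 8.44 and 9.43 and HOXB2 8.27 and 6.59. HOXA9 and HOXA10, which were assigned the same pair of peaks, had 16.4 and 18.0, at percentiles of 19.9 and 87.3, and were named after their values were seen. HOXD11 had H3K9Ac only (6.99), with an H3K4me3 peak of 6.49 that missed the q-value limit at 9.97. The 240 ZNF genes of chromosome 19 had similar ranks by both marks, with H3K4me3 more than 25 points higher at 5 and H3K9Ac at 11 of the 121 with both marks, near the 7.75 and 7.7% of all shared genes, and were frequent among the genes with H3K4me3 only. Both marks were at 121 (50.4%, next to 57.5% of all coding genes), H3K4me3 only at 19 and H3K9Ac only at 1 (ZNF114). Thus 5.69% of the 334 genes with H3K4me3 only came from a list that makes up 1.19% of coding genes. Their median percentiles were 29.9 and 28.1, and the H3K9Ac edge lay 119 bp upstream and 135 bp downstream of the H3K4me3 edge. ZNF544 (33.7 and 19.3) and ZNF584 (32.8 and 19.3) were the highest, and ZNF43 (9.02 and 6.50) and ZNF358 (7.99 and 5.52) the lowest. None of the 399 olfactory receptor genes had either mark.

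**Figure D5:**
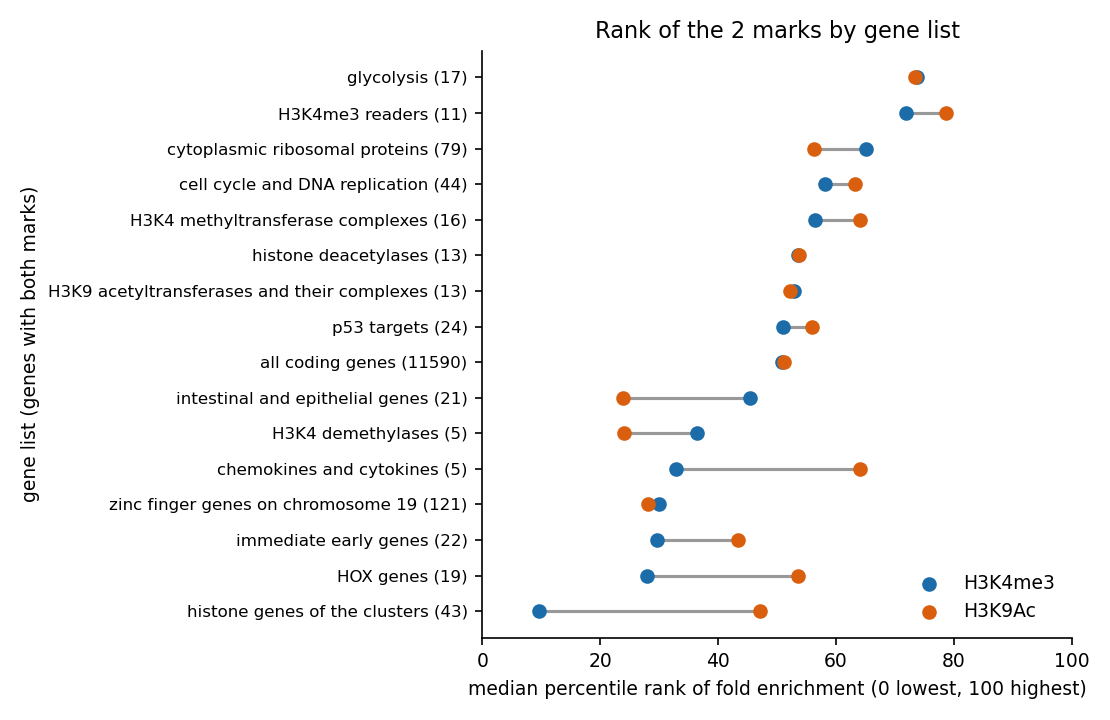
Median percentile rank of fold enrichment for H3K4me3 (blue) and H3K9Ac (orange) over the genes with both marks in each list, with the number of such genes in brackets. The points of glycolysis genes lie together near 73.7, whereas those of histone genes lie at 9.6 and 47.1.

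Chromosome X stood apart from the autosomes. Both marks were at 34.6% of its 869 coding genes, as against 45.9 to 66% on the autosomes, and the median fold enrichments over its 273 pairs were 13.7 for H3K4me3 and 8.34 for H3K9Ac, at percentiles of 11.2 and 9.6. The autosomal medians lay between 21.0 and 26.2 for H3K4me3 and between 12.1 and 14.8 for H3K9Ac. Both marks thus had their lowest median on X. Of the 334 genes with H3K4me3 only, 72 were on X (21.6%, interval 17.5 to 26.3%), which holds 4.31% of coding genes, while X held 7 of the 207 genes with H3K9Ac only. The rank correlation between the marks was 0.64 on X and lay between 0.75 and 0.85 on the autosomes. With the sex chromosomes left out, the rank correlation over all pairs was 0.785 and 259 genes had H3K4me3 only.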

How the data were processed

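The peak lists of the PIXUL-ChIP-seq libraries, 1 per mark, were the starting point. Alignment by the authors used BWA 0.7.12 (hg19), and their methods state MACS2 in broad mode (cutoff 0.1), whereas the submitters' processing notes name MACS 1.4.2, SAMtools 0.1.19 and bcl2fastq 2.20.0.442. The layout of the lists is that of MACS2. The authors deposited, for each whole peak, a fold enrichment as a linear ratio over background, described as input, together with a −log10 p-value and a −log10 q-value. The lists also hold peaks under the limits of the methods, a q-value of 1e-10 and a fold of 5 (1e-03 and 2 for H3K4me1 and H3K27me3), which were applied here. For H3K36me3 every deposited peak in the gene body was counted. Read layout is given both as single and as paired reads, and depth is unknown.

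TSS were those of canonical transcripts of GENCODE 44 on hg19 for 19881 coding genes and the 5′ end of the gene for 281. 18 genes are recorded on X and Y, and 5 of these second records had both marks. Among the genes with H3K4me3 only, CD99, AKAP17A and VAMP7 were counted on both chromosomes. Their records on Y entered the sequence values of that class with 0 CpG and a GC content of 0%. No gene with both marks had several peaks of a mark in its window. Percentile ranks were taken over distinct peak pairs. Shares have 95% Wilson intervals and medians order-statistic intervals. Python 3.11.15, pandas 2.3.3, scipy 1.17.1, pyfaidx 0.9.0.4 and bedtools 2.31.1 were used, and assignment and edges were tested on simulated data and against bedtools.

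The members, gene lists and comparisons were chosen with earlier results of these data known. Named genes were the 5 pairs highest by each mark, the 5 with the largest rank difference in each direction, the 3 with the longest H3K9Ac reach on each side, the 5 strongest genes with 1 mark, the 3 nearest each limit, and from each list the 2 highest and 2 lowest by H3K4me3 with its members of 1 mark where these were 5 or fewer. Genes on Y were left out of the lists, and some genes that the rule names are not reported here. No test could be made with 1 library per mark.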

Additional observations from a re-analysis of the deposited data

How the results depend on the processing

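Of 97 other settings 76 left the value within its range, 21 moved it and 0 reversed it. Part of the 76 could not move the value, for reasons given below, so their number does not measure stability. The range was 1.5 times for counts, the 95% interval for shares and medians, and 0.05 for the rank correlation. The numbers of genes with 1 mark depended most on the limits. With every deposited peak, 22 genes had H3K4me3 without H3K9Ac and 563 had H3K9Ac without H3K4me3, and with the fold limit multiplied by 1.5, 730 genes had H3K4me3 without H3K9Ac. With every deposited peak the medians for H3K4me3 were −776 and 1201.5 bp, those for H3K9Ac −1211.5 and 1666 bp, the downstream distance past H3K4me3 407.5 bp and the share of H3K9Ac peaks containing the H3K4me3 peak 89.4%. With the higher fold limit the H3K4me3 edges were −816 and 1231.5 bp and the downstream H3K9Ac edge 1713.5 bp. With the 5′ end of the gene record as TSS the edges were −729 and 1294 bp for H3K4me3 and −1163.5 and 1793 bp for H3K9Ac, and 45.0% of genes with H3K9Ac only had a weaker H3K4me3 peak. At genes alone in both peaks the edges were −693 and 1229 bp for H3K4me3 and −1074 bp upstream for H3K9Ac, which lay 313 bp past H3K4me3 upstream. The rank correlation stayed between 0.771 and 0.830 under every alternative tried. The windows of 500 bp and 2 kb moved no result. Edges, distances and containment were taken only where both peaks held the TSS, so for these the window could not matter. The q-value limit alone gave the same values throughout, because at 0 genes was the fold limit alone missed. Taking the peak with the highest fold enrichment also changed nothing, because no gene with both marks had several peaks in its window.

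Of 13 alternatives added after seeing the data 9 left the value within its range and 4 moved it. H3K9Ac ranked more than 25 points higher at 16 distinct pairs of histone genes in place of 30 genes, and at 14 genes whose H3K9Ac peak was in 1 pair. By −log10 q-value this was 27 of 43 histone genes, and H3K4me3 ranked higher at 13 of 79 ribosomal protein genes in place of 17. The share of X among genes with H3K4me3 only was 13.6% with every deposited peak, over 22 genes, and 17.4% with the higher fold limit. No paired analysis was possible because H3K4me3 and H3K9Ac were each measured in a single library. Depth, replicate spread and the input could not be assessed from the lists.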

Other observations

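Peaks outside the shared pairs, which include those at genes with 1 mark, had lower median fold enrichments than the peaks in the pairs. The 2609 H3K4me3 peaks past the limits outside the shared pairs had a median fold enrichment of 11.4, with quartiles of 8.32 and 17.6, and a median width of 1380 bp. The 2705 such H3K9Ac peaks had a median fold enrichment of 8.48, with quartiles of 7.03 and 11.5, and a median width of 2597 bp. The highest fold enrichments outside the shared pairs, 63.9 for H3K4me3 and 35.9 for H3K9Ac, were above the highest inside them, 61.7 and 32.2.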
